A study of Mus musculus with 18 samples.

Results

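The interleukin-1 (IL-1) cytokines and the proteins that process or restrain them are described here through 10 genes, chosen by name from the 22708 genes of the deposited table. They are the cytokine genes Il1b, Il1a and Il18, the genes of the receptor antagonist (Il1rn), the decoy receptor (Il1r2) and the accessory receptor chain (Il1rap), and Casp1, Casp4, Pycard and Gsdmd, which encode the caspases, the adaptor and the pore protein of the inflammasome. All 10 were in the table and passed the minimum level for testing in every comparison.

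The study asked how the aryl hydrocarbon receptor (AHR), a transcription factor activated by its ligands, shapes eosinophils of the gut. Bulk RNA was sequenced from CD11b+MHC-II-SiglecF+SSChi cells of the small intestine of C57BL/6 mice, taken directly after the sort. There were 6 wildtype samples, 6 from Ahr knockout mice (Ahr-/-) and 6 from Ahrr knockout mice (Ahrr-/-), the gene of the AHR repressor, each group with 3 males and 3 females. How the Ahrr-/- mice were made is not stated in the sources. The methods state that Ahr-/- and wildtype mice were neither littermates nor housed together, so genotype cannot be told apart from litter and housing.

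The authors deposited variance-stabilized values on a log2 scale. The lowest value, shared by all samples, stands for a count of 0, and differences between low counts are compressed. The total count ran from 3842977 to 8149200 per wildtype sample, from 6581818 to 10284124 per Ahr-/- sample and from 8788867 to 12046933 per Ahrr-/- sample. The wildtype F3 sample, the shallowest of all, had a count in 20244 genes and the Ahr-/- F3 sample in 19694, against 15146 to 17236 in the other 16 samples. Both stood apart in this way, so the called differences of the 10 genes and the main marker results are also given without them. A gene was called when its adjusted p from limma, with sex in the model and over all genes whose mean was at least 1 above the lowest value, was below 0.05.

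IL-1 beta and IL-18 are made as inactive precursors, which caspase-1 cleaves once an inflammasome sensor has recruited it through the adaptor ASC, the product of Pycard. The same caspases cut gasdermin D, which forms the pore through which the mature cytokines leave the cell. IL-1 alpha is active without that cleavage, and the receptor antagonist and the decoy receptor limit the action of both IL-1 forms. In the gut these cytokines are known for roles in defence against microbes, in inflammation and in the upkeep of the epithelium.

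The targeted genes were examined before the cytokines. Ahr values had a lowest, median and highest of 13.40, 13.76 and 14.40 in wildtype, 14.15, 14.55 and 14.67 in Ahr-/- and 13.03, 13.51 and 14.42 in the samples labelled Ahrr-/- (6 samples each). Ahrr values were 9.79, 10.12 and 10.39 in wildtype, a median of 5.25 and a highest of 5.79 in Ahr-/- (where the lowest stands for a count of 0) and 9.95, 10.37 and 10.93 in the samples labelled Ahrr-/-. Neither transcript was lower in the samples labelled as its own knockout. The Ahr difference between Ahr-/- and wildtype was 0.61 ± 0.19 (SE, adjusted p = 0.0557 from limma), and the Ahrr difference between the samples labelled Ahrr-/- and wildtype was 0.28 ± 0.18 (adjusted p = 0.683 from limma). A count over a whole gene is no check of a knockout when the deleted part is unknown, so the genotypes are used as labelled. Ahrr, a known target of AHR, was lower in Ahr-/- than in wildtype (difference -4.83 ± 0.14 SE, adjusted p = 4.95e-12 from limma), with a mean normalized count of 2.16 against 1053, and the groups did not overlap.

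Markers of eosinophils were present in all groups. Ccr3, the eotaxin receptor, had values from 12.39 to 13.93 over the 18 samples, Siglecf from 9.81 to 11.63 and Il5ra, the receptor chain for IL-5, from 10.04 to 11.68. Transcripts of granule proteins were low, with Epx between 5.46 and 6.22, and Prg3, Ear1, Ear2 and Ear6 at mean normalized counts under 10. Alox15, a lipoxygenase, was the most abundant of the 11 eosinophil markers in the table.

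Il1b was the most abundant of the 10 genes per kilobase of exon in every genotype. In wildtype the mean normalized count per kilobase was 15742 for Il1b, 7606 for Il1a, 2853 for Il1r2, 2684 for Il1rn, 497 for Gsdmd, 302 for Casp1, 216 for Pycard, 59.2 for Casp4, 29.8 for Il18 and 10.5 for Il1rap. The lowest wildtype level of Il1b, 9207, lay below the highest of Il1a, 9756, so these neighbours overlapped, as did Il1a with Il1r2 and Il1r2 with Il1rn. Every wildtype level of Il1rn lay above every level of Gsdmd, which separates the abundant cytokine, antagonist and decoy receptor transcripts from the rest. In Ahr-/- the level of Il1b was 37726 per kilobase against 8582 for Il1a, without overlap. The samples labelled Ahrr-/- had Casp1 (463) ahead of Gsdmd (404), with overlapping ranges. The lengths joined the exons of all annotated transcripts of a gene. That of Pycard, 3800 bases, is longer than the whole gene as RefSeq places it (chr7:127991373-127993867). Its level per kilobase is therefore understated, and its place below Gsdmd and Casp1 may come from this length, which was not tested.

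**Figure D1:**
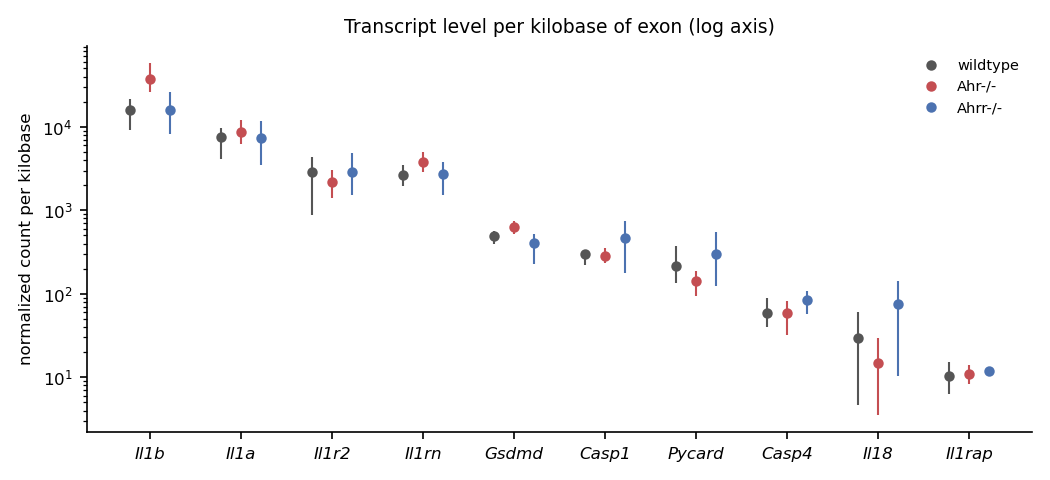
Normalized count per kilobase of exon (log axis) of the 10 genes in 3 genotypes. Points are means of 6 samples and lines run from the lowest to the highest sample; the Ahr-/- mean of Il1b, 37726, lies above the wildtype mean, 15742.

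Exons of Il1a, Il1b, Il1rap and Pycard overlap genes on the opposite strand in the annotation. Gm14023, beside Il1a, had a mean normalized count of 7753 and Il1bos, beside Il1b, of 336. Gm20319, beside Il1rap, had a mean of 0.95, and Gm45205, beside Pycard, was not among the genes deposited. The sources do not state whether reads were counted by strand. Part of the counts of Il1a, Il1b, Il1rap or Pycard may therefore belong to the genes opposite them, which was not tested.

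Il1b, the gene of IL-1 beta, was higher in Ahr-/- than in wildtype. Its values had a lowest of 14.11, a median of 14.93 and a highest of 15.33 in wildtype. In Ahr-/- they were 15.60, 15.97 and 16.76, and in the samples labelled Ahrr-/- 13.93, 14.74 and 15.60. Every Ahr-/- sample lay above every wildtype sample, with a gap of 0.26 between the groups, and the wildtype F1 (14.23) and M3 (14.11) samples were the low ones of their group. The difference between Ahr-/- and wildtype was 1.27 ± 0.25 (SE, 6 against 6 samples, 95% interval 0.74 to 1.81, adjusted p = 0.00432 from limma), which is 2.41-fold. Mean normalized counts were 30020 in wildtype, 71943 in Ahr-/- and 30158 in the samples labelled Ahrr-/-. The difference stayed called in each alternative tried (1.10 to 1.42) and was 1.29 without the wildtype F3 and Ahr-/- F3 samples (adjusted p = 0.0283 from limma, the highest of the alternatives).

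The comparison of Ahr-/- with the samples labelled Ahrr-/- does not use the wildtype samples but shares the Ahr-/- samples with the comparison above. There Il1b was higher in Ahr-/- by 2.46-fold (log2 interval 0.80 to 1.79, SE 0.23, adjusted p = 0.00285 from limma). The log2 difference was 1.38 without both F3 samples (adjusted p = 0.00311 from limma). Of the 6 Ahr-/- samples, 5 lay above every sample labelled Ahrr-/-, and the lowest, M3, was level at 15.60 with the highest Ahrr-/- sample, F1. Between the samples labelled Ahrr-/- and wildtype the Il1b difference was -0.03 ± 0.31 (SE, 95% interval -0.69 to 0.63, adjusted p = 0.981 from limma). In bulk RNA, fewer cells of a type and less RNA per cell cannot be told apart.

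The promoter of Il1b is shown because Il1b was the member called in both comparisons with Ahr-/-. RefSeq (GRCm38.p6) gives the 250 bases before its start at chr2:129371140-129371389 on the minus strand. That start lies 25 bases inside the gene as RefSeq places it, which reaches to 129371164, so the last 25 bases of the window belong to the annotated gene. The window is printed 5′ to 3′ with the TATAAA match in capitals:

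Il1b: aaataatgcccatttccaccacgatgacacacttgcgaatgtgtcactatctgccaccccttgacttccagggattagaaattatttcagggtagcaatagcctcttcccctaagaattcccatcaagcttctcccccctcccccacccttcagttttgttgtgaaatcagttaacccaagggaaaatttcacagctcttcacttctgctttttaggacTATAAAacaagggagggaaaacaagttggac

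The motifs searched on both strands were GCGTG, the core letters of the AHR response element, TATAAA, the TATA box, and a loose kappa B pattern (GGG, any 5 bases, CC). The Il1b window held 1 TATAAA, starting 31 bases before the start, and neither of the others. Over 32851 RefSeq promoter windows of the same length, GCGTG was found in 28.2%, TATAAA in 12.4% and the kappa B pattern in 45.8%. Promoter entries were matched for 9 of the 10 genes, all but Gsdmd. GCGTG occurred in the windows of Il1r2 and Il1rap and in 1 of the 3 windows of Il1rn, and TATAAA also in those of Il1a and Il18. The kappa B pattern occurred in the windows of Il1rap, Casp1 and Casp4 and in 2 of the 3 of Il1rn. A match describes letters in a window and shows no binding.

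Il1a, the gene of IL-1 alpha, had a wide spread within each genotype and did not differ by genotype in the test. Its values ran from 13.02 to 14.24 in wildtype, from 13.59 to 14.56 in Ahr-/- and from 12.76 to 14.51 in the samples labelled Ahrr-/-. The difference between Ahr-/- and wildtype was 0.20 ± 0.22 (SE, adjusted p = 0.614 from limma), with a 95% interval of -0.26 to 0.67 that lies below the interval of Il1b. The wildtype F1 and M3 samples, low for Il1b, were also the lowest of their group for Il1a. Without both F3 samples the difference was 0.26 and was not called. Leaving out each sample gave 0.053 to 0.335, also not called. Whether the genotype difference differed between Il1a and Il1b was not tested.

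Il18, which encodes a cytokine of epithelial and myeloid cells, was the least abundant cytokine transcript. Lowest, median and highest values were 5.57, 6.27 and 6.88 in wildtype, 5.50, 5.92 and 6.37 in Ahr-/- and 5.84, 7.06 and 7.70 in the samples labelled Ahrr-/-. Mean normalized counts were 30.8, 15.5 and 78.1. Among the samples labelled Ahrr-/-, F3, M1 and M3 (7.46 to 7.70) lay above every wildtype sample, and F1, F2 and M2 lay within the wildtype range. Il18 was lower in Ahr-/- than in the samples labelled Ahrr-/- by -0.95 ± 0.28 (SE, adjusted p = 0.0367 from limma), and the groups overlapped. Leaving out any of Ahr-/- F1, F2, M1, M2 or M3 or Ahrr-/- F3, M1 or M3 ended the call, as did a model without sex or a test without the minimum mean, with adjusted p up to 0.0929 from limma over the alternatives, and without both F3 samples the difference was -1.07 (adjusted p = 0.0258). The size depends on the scale at such low counts, and it was -2.35 by voom. Against wildtype, the differences were -0.36 for Ahr-/- and 0.59 for the samples labelled Ahrr-/-, and neither was called.

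**Figure D2:**
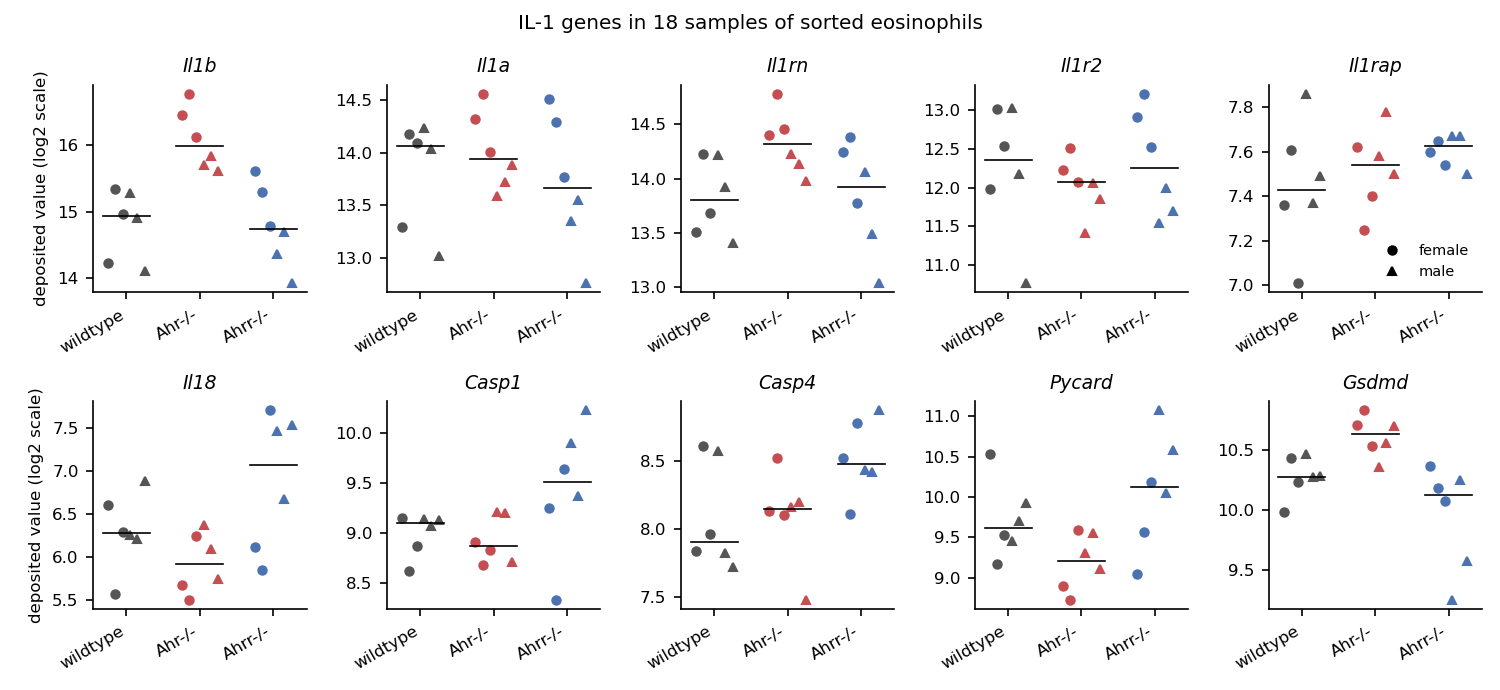
Deposited values (log2 scale) of the 10 genes in 18 samples by genotype. Each point is a sample, circles are females, triangles are males and lines are medians; for Il1b the Ahr-/- samples, 15.60 to 16.76, all lie above the wildtype samples, 14.11 to 15.33.

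Il1rn encodes the antagonist that occupies the IL-1 receptor without signalling. It ran from 13.41 to 14.23 in wildtype, from 13.98 to 14.78 in Ahr-/- and from 13.04 to 14.38 in the samples labelled Ahrr-/-. The difference from wildtype was 0.50 ± 0.18 in Ahr-/- (SE, adjusted p = 0.0992 from limma) and 0.00 ± 0.25 in the samples labelled Ahrr-/-. Of the 6 Ahr-/- samples, 3 lay above every wildtype sample, and the difference was called only when the wildtype M1 sample was left out (0.45 without both F3 samples, not called).

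Il1r2, whose product binds IL-1 without passing on a signal, ran from 10.77 to 13.03 in wildtype, from 11.42 to 12.51 in Ahr-/- and from 11.55 to 13.21 in the samples labelled Ahrr-/-. Its wildtype M3 sample, at 10.77, was the lowest of the 18. Il1rap, the chain that the signalling IL-1 receptor needs, was the least abundant transcript per kilobase and lay between 7.01 and 7.86 in all samples. No genotype difference of Il1r2 or Il1rap was called, and these differences lay between -0.29 and 0.15.

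Pycard and Gsdmd, the adaptor and the pore of the inflammasome, differed in opposite directions between Ahr-/- and the samples labelled Ahrr-/-. Lowest, median and highest values of Pycard were 9.17, 9.62 and 10.53 in wildtype, 8.73, 9.21 and 9.59 in Ahr-/- and 9.05, 10.12 and 11.07 in the samples labelled Ahrr-/-. Its high samples were Ahrr-/- M1 (11.07) and M3 and wildtype F1 (10.53), and all groups overlapped. Pycard was lower in Ahr-/- than in the samples labelled Ahrr-/- by -0.89 ± 0.23 (SE, adjusted p = 0.0227 from limma). It was no longer called without Ahr-/- F2, M1 or M3 or Ahrr-/- M3, nor without sex in the model (highest adjusted p = 0.0622 from limma), and without both F3 samples the difference was -1.04 (adjusted p = 0.00907). The difference between Ahr-/- and wildtype was -0.52 ± 0.20 (SE, adjusted p = 0.128 from limma), with 3 of 6 Ahr-/- samples below every wildtype sample.

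Gsdmd had values of 9.98, 10.27 and 10.47 in wildtype, 10.36, 10.63 and 10.83 in Ahr-/- and 9.25, 10.12 and 10.37 in the samples labelled Ahrr-/-. Of the 6 Ahr-/- samples, 5 lay above every sample of each other group, and Ahrr-/- M1 (9.25) and M3 (9.57) were the lowest. Gsdmd was higher in Ahr-/- than in the samples labelled Ahrr-/- by 0.67 ± 0.16 (SE, adjusted p = 0.0154 from limma), or 1.59-fold. That difference was called in each alternative (0.55 to 0.77) and was 0.72 without both F3 samples. Against wildtype it was 0.34 ± 0.11 (SE, adjusted p = 0.067 from limma), and it was called when wildtype M1 or Ahr-/- M1 was left out.

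Casp1, the protease that matures IL-1 beta and IL-18, ran from 8.62 to 9.15 in wildtype, from 8.68 to 9.21 in Ahr-/- and from 8.34 to 10.22 in the samples labelled Ahrr-/-. Casp4, the mouse caspase-11 that senses bacterial lipopolysaccharide inside the cell, ran from 7.72 to 8.61, from 7.48 to 8.52 and from 8.11 to 8.87. The differences of Ahr-/- from wildtype were -0.07 ± 0.11 for Casp1 and 0.01 ± 0.18 for Casp4 (SE). Against the samples labelled Ahrr-/-, they were -0.53 (adjusted p = 0.0978 from limma) and -0.42 (adjusted p = 0.0984 from limma), and both were called only when Ahrr-/- F2 was left out.

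**Figure D3:**
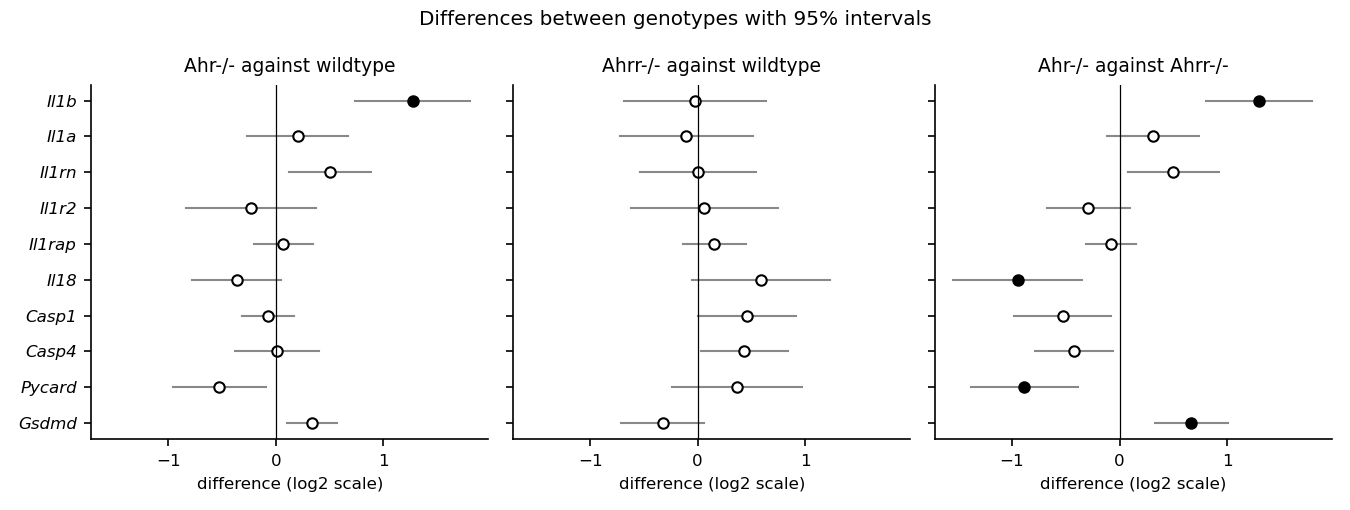
Difference (log2 scale) of each of the 10 genes in 3 comparisons of genotypes, 6 against 6 samples, with 95% intervals. Filled points are called at an adjusted p below 0.05: Il1b (1.27) between Ahr-/- and wildtype, and Il1b (interval 0.80 to 1.79), Il18 (-0.95), Pycard (-0.89) and Gsdmd (0.67) between Ahr-/- and the samples labelled Ahrr-/-.

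Counted over the 10 genes, 1 (Il1b) was called between Ahr-/- and wildtype, beside 8.84% of the 11346 genes tested (1003 genes, of which 585 were higher and 418 lower in Ahr-/-). The median difference of the 10 was 0.04, against -0.00 over all genes. Without both F3 samples the number of genes called was 586, and of the 10 still 1. Between the samples labelled Ahrr-/- and wildtype, limma called 0 of the 10, with 2 at an unadjusted p under 0.05 (Casp1 and Casp4) and 0 called by voom, beside 0.0779% of 11546 genes (9 genes, 4 by voom). Between Ahr-/- and the samples labelled Ahrr-/-, 4 of the 10 were called, beside 14.9% of 11474 genes (1708), and without both F3 samples also 4. Their medians were 0.11 and -0.19, against 0.01 and 0.00 over all genes. The 3 comparisons share samples pairwise, so they are not independent of each other.

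RNA of epithelial markers moved with Il18 and Pycard from sample to sample. All 12 genes of the epithelial list were in the table, none was at 0 throughout, and Muc2, a mucin of goblet cells, was the most abundant, with mean normalized counts of 3475 in wildtype, 1506 in Ahr-/- and 6290 in the samples labelled Ahrr-/-. The mean value of the list was 10.59, 8.90 and 9.40 in the wildtype females and 9.30, 9.47 and 9.95 in the males. In Ahr-/- it was 8.92, 8.66 and 9.57 in the females and 9.51, 9.56 and 9.23 in the males. In the samples labelled Ahrr-/- it was 9.11, 9.06 and 11.08 in the females and 10.98, 10.21 and 11.26 in the males. The 4 samples labelled Ahrr-/- with a list mean above 10 were the 4 with the highest Il18 (6.67 to 7.70). As a share of all counts the list took from 0.0578% in Ahr-/- F2 to 0.627% in Ahrr-/- M3. The list mean differed by -1.04 between Ahr-/- and the samples labelled Ahrr-/- (exact two-sided permutation p = 0.0455, adjusted p = 0.175), and 6 of its 12 genes were called lower there (14.9% of all genes were called), with a median of -1.05. That difference of the list mean was -1.11 without both F3 samples (exact permutation p = 0.0563, adjusted p = 0.152). The part of epithelial RNA in the differences of Il18, Pycard and Casp1 was not tested.

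Il1b was lowest in wildtype M3 and F1 (14.11 and 14.23), the wildtype samples with the highest epithelial list means, and in Ahrr-/- M3 (13.93), the highest of its group. Within Ahr-/- it was highest in F2 and F1 (16.76 and 16.44), the samples with the lowest list means, while F3, with the highest list mean, had 16.12 and M1, M2 and M3 had 15.60 to 15.83. Between Ahr-/- and wildtype the epithelial list mean differed by -0.36 (exact permutation p = 0.255, adjusted p = 0.363). Of its 12 genes, 9 were lower in Ahr-/- and 1 was called (8.84% of all genes), with a median of -0.48. The part of epithelial RNA in the Il1b difference between genotypes was not tested.

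**Figure D4:**
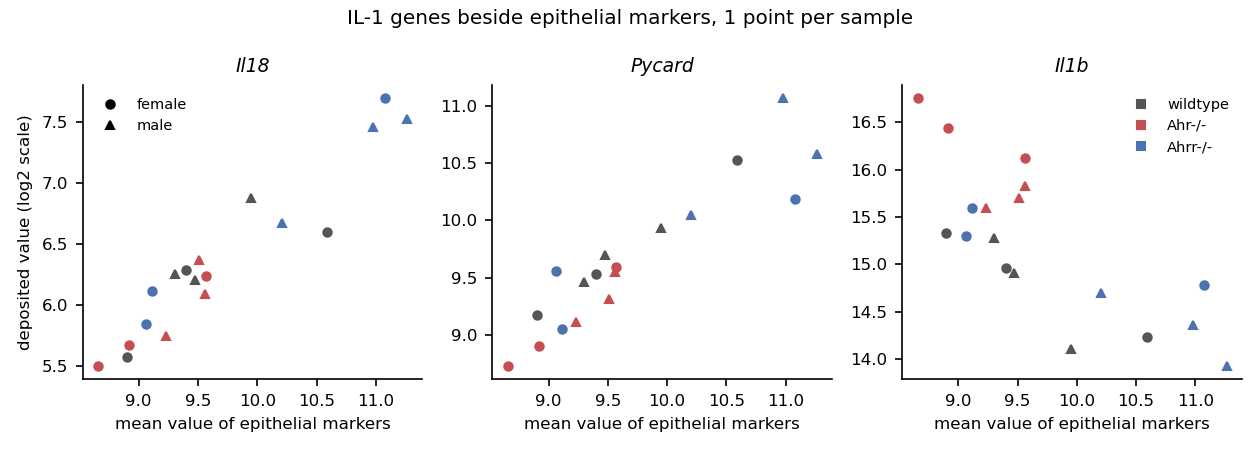
Deposited values (log2 scale) of Il18, Pycard and Il1b against the mean value of 12 epithelial markers in the same sample, 18 samples, colours for genotypes. The highest Il18 values, 7.46 to 7.70, are in the samples labelled Ahrr-/- with list means of 10.98 to 11.26.

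Other cell types were examined through their marker lists, each averaged per sample and compared between genotypes with exact two-sided permutation tests. None of the 27 tests, of 9 lists in 3 pairs of genotypes, passed after adjustment; the smallest p, 0.00216, is the smallest that 6 against 6 samples allow, and a single list at that floor cannot pass over 27 tests. It belonged to the eosinophil list, with a mean of 8.69 in Ahr-/- and 8.32 in wildtype (adjusted p = 0.0584), where all 6 Ahr-/- samples lay above every wildtype sample. On log2(count + 1), which gives low counts more weight, 3 of 6 did (exact permutation p = 0.0368, adjusted p = 0.331). Of its 6 tested genes, 2 were called higher there (8.84% of all genes), with a median of 0.36. Against the samples labelled Ahrr-/- the same list differed by 0.45 (exact permutation p = 0.00649, adjusted p = 0.0877), and 4 of its 6 tested genes were called higher in Ahr-/- (14.9% of all genes), with a median of 0.74. Without both F3 samples these differences were 0.36 and 0.41, with too few samples for a single list to pass. The part of the eosinophil marker level in the differences of Il1b and Gsdmd was not tested. Per sample, the eosinophil list took 0.332% to 0.495% of counts in wildtype, 0.518% to 0.574% in Ahr-/- and 0.214% to 0.425% in the samples labelled Ahrr-/-.

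Neutrophils also express Il1b, Il1r2 and Il1rn, so their 11 markers are given beside these genes. Ly6g, Mpo, Elane and Prtn3 had mean normalized counts under 10, and Ly6g was at 1.38 in wildtype, 1.10 in Ahr-/- and 1.96 in the samples labelled Ahrr-/-. Retnlg was the most abundant of the list, at 35077, 81840 and 33082, and made up most of its summed level. The list took 0.323% to 0.559% of counts per wildtype sample, 0.748% to 1.29% per Ahr-/- sample and 0.365% to 0.507% per sample labelled Ahrr-/-. S100a8 and S100a9 had mean normalized counts of 102 and 189 in wildtype, 199 and 338 in Ahr-/- and 642 and 1031 in the samples labelled Ahrr-/-. Their means were higher in Ahr-/- than in wildtype, as that of Retnlg was. Unlike Retnlg, they were highest in the samples labelled Ahrr-/-, where both were called higher. The list mean was 8.22 in Ahr-/- F3 and 7.07 to 7.14 in the other Ahr-/- samples, and 8.51 in Ahrr-/- F2 and 7.24 to 7.52 in the other samples with that label, so the differences below rest in part on these 2 samples. It differed by 0.27 between Ahr-/- and wildtype (exact permutation p = 0.214), and 2 of the 6 tested genes were called higher in Ahr-/- (8.84% of all genes were called). Without both F3 samples it differed by 0.16, with all 5 Ahr-/- samples above every wildtype sample (exact permutation p = 0.00794, the smallest possible for 5 against 5). Against the samples labelled Ahrr-/- it differed by -0.24 (exact permutation p = 0.45) and, without both F3 samples, by -0.42 (exact permutation p = 0.00433, adjusted p = 0.0536). The part of neutrophil RNA in the Il1b difference was not tested. The list mean also differed by 0.50 between the samples labelled Ahrr-/- and wildtype (exact permutation p = 0.0108, adjusted p = 0.0974).

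The 14 markers of macrophages, monocytes and dendritic cells differed by 0.04 between Ahr-/- and wildtype, and Cd74 was the most abundant (895, 910 and 1722). Their list mean differed by 0.54 between the samples labelled Ahrr-/- and wildtype (exact permutation p = 0.0758). It differed by -0.50 between Ahr-/- and the samples labelled Ahrr-/- (exact permutation p = 0.206). There, 10 of 12 tested genes were lower in Ahr-/- and 1 was called (14.9% of all genes were called). Mast cell markers had 6 of 8 genes under a mean count of 10 and differed by 0.13, and by 0.32 between the samples labelled Ahrr-/- and wildtype (exact permutation p = 0.0303, adjusted p = 0.136). T cell and innate lymphocyte markers had 6 of the 7 in the table under 10 and differed by -0.09. The 5 B and plasma cell markers in the table, led by Jchain (720, 280 and 3296), differed by -0.23, by 0.43 between the samples labelled Ahrr-/- and wildtype (exact permutation p = 0.0823) and by -0.65 between Ahr-/- and that group (exact permutation p = 0.0216, adjusted p = 0.117). By the sort, only CD11b+MHC-II-SiglecF+SSChi cells were taken. The part of the cells of these lists in the differences of Il18, Pycard, Casp1 and Nlrp3 was not tested. Pancreatic acinar markers were led by Ctrb1 (543 in wildtype, 37.9 in Ahr-/- and 104 in the samples labelled Ahrr-/-). Between Ahr-/- and wildtype their list mean differed by -1.27 (exact permutation p = 0.0173, adjusted p = 0.117), and 3 of 7 tested genes were called lower (8.84% of all genes). Wildtype F1, F2, F3 and M3 lay between 6.97 and 8.11, and M1 and M2 at 5.49 and 5.67. The difference was -1.14 without both F3 samples (exact permutation p = 0.0556). It was -0.99 between the samples labelled Ahrr-/- and wildtype (exact permutation p = 0.119). Immediate early and heat shock genes, led by Dusp1 (20501, 30740 and 23034), differed by -0.22 between Ahr-/- and wildtype (exact permutation p = 0.39). Of these 13 genes, 3 were higher in Ahr-/- and 10 lower, with 1 called each way (8.84% of all genes). Their summed normalized count, by contrast, had a median of 39453 in wildtype and 46451 in Ahr-/-. Against the samples labelled Ahrr-/- the list mean differed by -0.47 (exact permutation p = 0.175). The part of such activation in the Il1b difference was not tested.

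The wider pathway was read from 6 further lists with 78 genes, of which 61 were tested between Ahr-/- and wildtype. There, 12 were called, 8 higher and 4 lower, beside 8.84% of all genes tested, with a median difference of 0.01. Of the 61 tested between Ahr-/- and the samples labelled Ahrr-/-, 12 were called, 7 higher and 5 lower, beside 14.9% of all genes, with a median of 0.00. The lists were not tested as sets. Between the samples labelled Ahrr-/- and wildtype, limma called 0 of 62. Other IL-1 family ligands were near absent: of 7, including Il33 and the IL-36 genes Il1f5, Il1f6, Il1f8 and Il1f9, only the binding protein gene Il18bp (7.00 to 8.31) passed the minimum in all comparisons, and it was not called. Il1f9 passed only in the comparison of the samples labelled Ahrr-/- with wildtype, where its mean normalized count was 37.1 against 8.29 in wildtype; it is named because its values were seen. Of 8 other receptors of the family, 4 were tested and 0 called by limma; the signalling receptor Il1r1 was below the minimum (mean normalized counts of 7.18, 4.88 and 18.1), and Il1rl1, the IL-33 receptor, was the highest (6.33 to 7.96).

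Inflammasome sensors and triggers had 5 of 15 genes called between Ahr-/- and wildtype (8.84% of all genes), with a median of 0.08. Mefv, the gene of pyrin, was lower by -0.73 ± 0.13 (SE, adjusted p = 0.00188 from limma), every Ahr-/- sample below every wildtype sample. Nlrp1a (0.42), Nlrp1b (0.54), Naip2 (0.35) and Naip5 (0.51), sensors of pathogen proteases and bacterial proteins, were higher. The calls of Nlrp1a, Naip2 and Naip5 were each lost in 11 or more of 21 alternatives, and that of Nlrp1b without Ahr-/- F1 or F2 and with all 18 samples in the fit. Nlrp1a and Nlrp1b, and Naip2 and Naip5, are close paralogs, so reads may be shared between them. Without both F3 samples, Mefv (-0.77), Nlrp1b (0.61) and Naip5 (0.59) were called and Nlrp1a and Naip2 were not.

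Against the samples labelled Ahrr-/-, 6 of the 15 sensors were called (14.9% of all genes). Nlrp3, whose product drives IL-1 beta maturation in many cells, was lower in Ahr-/- by -1.11 ± 0.16 (SE, adjusted p = 0.000427 from limma), with values of 5.89 to 6.56 in Ahr-/-, 6.57 to 7.69 in the samples labelled Ahrr-/- and 5.84 to 6.85 in wildtype. Against wildtype, Nlrp3 in the samples labelled Ahrr-/- differed by 0.92 ± 0.17 (SE, adjusted p = 0.0939 from limma), and it was called without Ahrr-/- M1 or with all 18 samples in the fit. Mefv was lower by -0.82 and Nlrc4 by -0.85, the call of Nlrc4 being lost without any of 8 samples. The Nlrc4 call was also lost with no minimum mean, without sex in the model, with all 18 samples in the fit and with log2(count + 1). Nlrp1a (0.72), Nlrp1b (0.97) and Naip5 (0.94) were higher in Ahr-/- in each alternative tried. Txnip, the most abundant gene of the list, was not called in either comparison.

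Other proteases and pore proteins had 3 of 12 tested genes called between Ahr-/- and wildtype (8.84% of all genes), with a median of -0.21. Gsdme, the gene of gasdermin E, was lower in Ahr-/- by -0.43 ± 0.11 (SE, adjusted p = 0.0237 from limma). Its call was lost without Ahr-/- F3 or M3, without both F3 samples and without sex in the model. Capn1 (0.29), a calpain subunit, was higher and Capn2 (-0.39) lower, and their calls were lost in 16 and 14 of 21 alternatives, including without both F3 samples. Against the samples labelled Ahrr-/-, 1 of the 12 was called (14.9% of all genes), Gsdmc4 (-1.21), which was lower in Ahr-/- and was not called without sex in the model. Gsdmc4 is a close paralog of Gsdmc2 and Gsdmc3, which were not called, and reads may be shared. Gsdmc4 and Nlrc4 were highest in wildtype F1 among wildtype and lowest in Ahr-/- F2 among Ahr-/-, which were also the extremes of the epithelial list, and its part in their differences was not tested. Capns1, the highest of the list, was not called.

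IL-1 receptor signalling had 1 of 18 genes called between Ahr-/- and wildtype (8.84% of all genes), with a median of -0.02. It was Irak2, a kinase of the receptor complex, lower in Ahr-/- by -0.95 ± 0.11 (SE, adjusted p = 2.35e-05 from limma). All 6 Ahr-/- samples, 8.97 to 9.67, lay below the wildtype samples, 9.82 to 10.57. Against the samples labelled Ahrr-/- it was lower by -0.87 ± 0.15, and both calls held in each alternative and without both F3 samples (-0.99 and -0.87). Nfkb1 was higher there (0.51 ± 0.14 SE), a call lost when any of 7 samples was left out and without sex in the model. Nfkbia, the highest of this list, was not called.

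Genes induced by IL-1 in many cells had 3 of 12 called between Ahr-/- and wildtype (8.84% of all genes), all higher in Ahr-/-, with a median of 0.21. These were Cxcl1 (0.74 ± 0.17 SE), Ccl3 (0.83 ± 0.21) and Il6 (1.46 ± 0.40), with adjusted p of 0.011, 0.0198 and 0.0334 from limma. The Cxcl1 call held in each alternative, that of Ccl3 was lost without wildtype F3 or Ahr-/- F2, F3 or M3 and with all 18 samples in the fit, and that of Il6 without wildtype F3 or M3 or Ahr-/- F1, F2, M2 or M3 and with no minimum mean. Both were also lost without sex in the model. Without both F3 samples Ccl3 (0.73) and Il6 (1.59) were not called. Il6 had a median of 7.68 and a highest of 9.73 in wildtype and a median of 8.86 in Ahr-/-, so the groups overlapped widely. The same 3 of the 12 genes were called against the samples labelled Ahrr-/- (14.9% of all genes), with a list median of 0.03. Their differences were 0.60 for Cxcl1, 1.34 for Il6 and, over the alternatives, 0.84 to 1.14 for Ccl3. All 3 calls were lost without sex in the model. Cxcl1 was lost without any of 7 samples and with no minimum mean, and Il6 without any of 5 samples. Cxcl2, the most abundant gene of the list with a mean normalized count of 31405 in wildtype and 28329 in Ahr-/-, was not called.

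**Figure D5:**
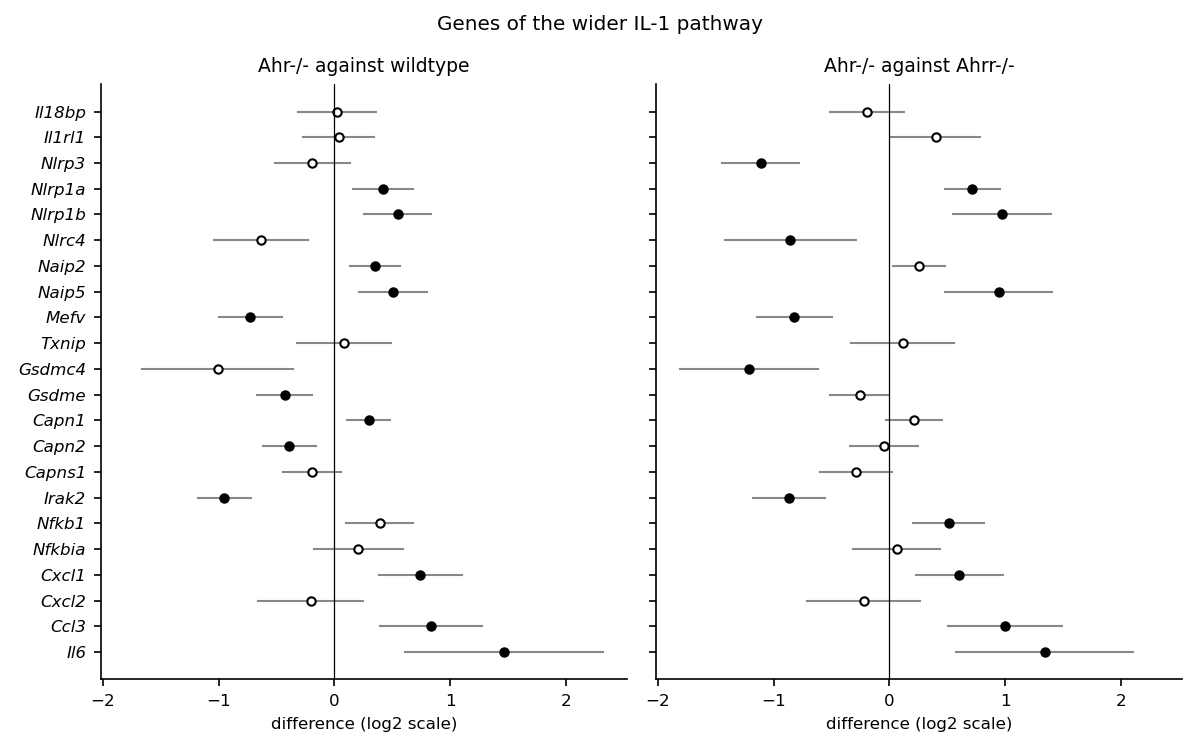
Difference (log2 scale) of 22 genes from 6 lists of the wider IL-1 pathway in 2 comparisons, 6 against 6 samples, with 95% intervals; filled points are called. Irak2 (-0.95 and -0.87) and Mefv (-0.73 and -0.82) are lower in Ahr-/- in both, and Il6 (1.46 and 1.34) has wide intervals.

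The genes whose values were most like those of Il1b over the 18 samples were Cblb (Pearson r = 0.953), Gadd45a (0.949), P2ry10 (0.948), Cyfip2 (0.947) and Mkx (0.946), out of 5359 genes with a mean at least 3 above the lowest value. Leaving out any sample kept these r between 0.935 and 0.962, and without both F3 samples they were 0.943 to 0.951. Cblb encodes a ubiquitin ligase, Gadd45a a protein of the stress response and Mkx a homeobox factor. All 5 were called higher in Ahr-/- than in wildtype, from 0.64 (Cyfip2) to 1.28 (Mkx), and than in the samples labelled Ahrr-/-, from 0.75 (Cyfip2) to 1.48 (Mkx). This follows from their choice by likeness to Il1b over the same samples and is no separate finding. The call of Gadd45a against wildtype (0.74, adjusted p = 0.0344 from limma) was lost without any of 7 samples and without both F3 samples. It was also lost without sex in the model and with no minimum mean, and the others held in each alternative.

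Sex was compared over all 18 samples with genotype in the model, as male minus female. Limma called 0 of the 10 genes, with 4 at an unadjusted p under 0.05 (Il1b, Il1a, Il1r2 and Casp1) and 0 called by voom, beside 3.06% of 11468 genes (351, of which 282 were lower in males). The sex differences were -0.57 ± 0.22 for Il1b, -0.54 ± 0.20 for Il1a and -0.71 ± 0.23 for Il1r2 (SE), with adjusted p of 0.162, 0.145 and 0.0924 from limma. All 3 were called without wildtype F1, and Il1r2 also without wildtype M1. Within Ahr-/- and within the samples labelled Ahrr-/-, every female lay above every male for each of these 3 genes. Within wildtype the sexes overlapped for each of them, and the means of Il1b were 14.84 ± 0.56 in females and 14.76 ± 0.60 in males (SD, n = 3).

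The interaction of genotype and sex gave no call. Limma called 0 of 11346 genes (0%) for Ahr-/- and wildtype, with 533 at an unadjusted p under 0.05 and 0 by voom (549), and 0 of 11546 (0%) for the samples labelled Ahrr-/- and wildtype, with 544 and 0 by voom (457). None of the 10 genes had an unadjusted p under 0.05 in either, so the sexes were not shown to differ in their genotype differences. The genes induced by IL-1 had 8 of 12 called lower in males and 0 higher, beside 3.06% of all genes called between the sexes, with a median of -0.89 against 0.01 over all genes. Of the immediate early and heat shock genes, 5 of 13 were called lower in males, with a median of -0.59. Markers of other cells also lay apart between the sexes: all 12 epithelial markers were higher in males (median 0.48, 0 called), as were 10 of the 11 tested markers of macrophages, monocytes and dendritic cells (median 0.70, 2 called). Of the 6 tested neutrophil markers, 5 were lower in males (median -0.54, 1 called), as was the 1 tested mast cell marker (-0.94, called). Their part in the sex differences was not tested. The number of genes called between the sexes depended on which sample was left out, from 142 without Ahr-/- M1 to 733 without wildtype F1, so these list counts are a description of the 18 samples.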

How the data were processed

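Bulk RNA of 18 samples was compared, 6 per genotype. By the methods, the authors took single-ended reads through nf-core/rnaseq on GRCm38 to counts per gene. The submitters' processing notes list STAR 2.5.2, RSEM 1.3.0 and R 4.0.3, and the authors used DESeq2. The deposited table holds variance-stabilized expression on a log2 scale, used unchanged. The IL-36 genes are in it as Il1f5, Il1f6, Il1f8 and Il1f9. Turning the transformation back gave whole counts for 100% of values (tolerance 0.0001), used for depth, normalized counts and voom. Genes were matched to RefSeq by Entrez ID (22685 of 22708), and exon lengths came from GENCODE, joined over all transcripts of a gene.

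Each gene with a mean at least 1 above the lowest value was fitted with limma 3.58.1 (R 4.3.3) with a mean-variance trend, on the samples of the comparison, with sex as covariate and Benjamini-Hochberg adjustment over all genes tested. Marker lists used exact two-sided permutation tests (scipy 1.17.1), adjusted over 27 tests. Python 3.11.15, numpy 2.4.6, pandas 2.3.3 and matplotlib 3.10.9 made tables and figures. The fits were tested on simulated data.

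The members and lists were chosen with earlier results of these data known, the higher Il1b in Ahr-/- among them, so that result is no independent support. Named beyond the members were the list genes called in any genotype comparison, the gene with the highest mean in each list, the 5 genes most like Il1b, and from each marker list the most abundant gene and those near 0. The alternatives dropped the minimum mean, raised it to 3, centred each sample on its median, took the replicate label as a block in place of sex, dropped sex, fitted all 18 samples together, and used log2(count + 1) or limma voom. Others left out each sample in turn, or wildtype F3 and Ahr-/- F3 together, the last chosen after seeing the data. For the marker lists, the centring, log2(count + 1) and the omission of both F3 samples were also chosen after seeing the data. A gene of the lists is not reported here and is left out of their counts. The other experiments of the study were not analysed here.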

Additional observations from a re-analysis of the deposited data

How the results depend on the processing

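Of 42 called differences, 19 fell short of the threshold in at least 1 alternative and none changed direction; over 872 values of these differences, 707 stayed called and 165 did not. The number of genes called moved with the processing. Between Ahr-/- and wildtype it was 553 with all 18 samples in the fit, 586 without both F3 samples and 623 to 1124 leaving out each sample. Between the samples labelled Ahrr-/- and wildtype it was 4 with no minimum mean, centring, the replicate block, log2(count + 1) or voom, 5 with the stricter minimum, 14 with all 18 samples in the fit and 4 to 25 leaving out each sample. Between Ahr-/- and the samples labelled Ahrr-/- it was 828 with the stricter minimum, 994 without sex and 818 to 2574 leaving out each sample. Between the sexes it was 163 with no minimum mean and 142 to 733 leaving out each sample. Fewer samples or genes alter the power of these tests; otherwise the cause was not tested.

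Of the 10 genes, leaving out each sample gave 1 to 3 called between Ahr-/- and wildtype, 2 to 6 between Ahr-/- and the samples labelled Ahrr-/- (2 also without sex) and 0 to 3 between the sexes. Same-labelled samples of different genotypes did not pair, with correlations of their deviations from -0.59 to 0.47, and with the replicate block the difference of Il1b between Ahr-/- and wildtype was 1.27 and still called. The stricter minimum left out genes of low level, among them Il18, Nlrp3, Mefv and Cxcl1 in the comparisons where they lack a value.

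Differences near 0 that were not called changed sign, and the cause was not tested. Between Ahr-/- and wildtype Casp4 was -0.011 with voom and -0.013 without both F3 samples. Between the samples labelled Ahrr-/- and wildtype Il1rn was -0.0397 with centring and -0.059 without both F3 samples, and Cxcl2 was -0.029 with centring. Between Ahr-/- and the samples labelled Ahrr-/- Capn2 was 0.016 with centring. Leaving out each sample gave, between Ahr-/- and wildtype, Casp1 -0.13 to 0.0033, Casp4 -0.064 to 0.14, Il18bp -0.10 to 0.11, Il1r2 -0.50 to 0.0024, Il1rap -0.0023 to 0.14, Il1rl1 -0.070 to 0.13 and Txnip -0.010 to 0.18. Between the samples labelled Ahrr-/- and wildtype it gave Capns1 -0.023 to 0.14, Cblb -0.058 to 0.18, Cxcl1 -9.0e-05 to 0.22, Cxcl2 -0.12 to 0.16, Cyfip2 -0.22 to 0.027, Il1a -0.28 to 0.049, Il1b -0.21 to 0.14, Il1r2 -0.17 to 0.33, Il1rn -0.10 to 0.15, Il6 -0.15 to 0.43, Irak2 -0.19 to 0.0023, Mefv -0.0047 to 0.19, P2ry10 -0.29 to 0.060 and Txnip -0.14 to 0.089. Between Ahr-/- and the samples labelled Ahrr-/- it gave Capn2 -0.14 to 0.027, Nfkbia -0.038 to 0.14 and Txnip -0.023 to 0.22. Depth limits the low genes most: Il18 had a mean normalized count of 15.5 in Ahr-/-.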
